A study of Mus musculus with 2 samples.

Results

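Integrins and laminins were taken by symbol from the authors' deposited gene table, as the rows whose name begins with Itga or Itgb with no later letter p or l, or with Lam followed by a, b or c and a digit. This gave 36 of the 23365 genes of the table, namely 17 integrin alpha subunits, 8 integrin beta subunits and 11 laminin chains. The wording leaves out Itgal, the alpha subunit of a lymphocyte integrin, whose mean normalized count was 2.0, and Itgb2l, listed at 0 in both conditions, per the authors' deposited table. RNA was sequenced from mouse embryonic fibroblasts, mesenchymal cells grown from embryos, with TET1 and TET2 knocked out or of wild-type genotype, and each genotype had 1 library. TET enzymes oxidize methylated cytosine in DNA, and the series title asks how Tet1 and Tet2 bear on the methylation of developmental genes. The labels give no allele, clone, passage or number of embryos, and so do not say how far either culture stands for its genotype.

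The 2 sides of the comparison in the authors' deposited table are called A and B, and these names match neither label. Each ratio below has B on top, and none is assigned to a genotype. Levels of a single condition were not used, so a gene's level is the authors' mean normalized count over both conditions, meaning gene counts divided by size factors. These means sum to 58127871 over the 23365 genes per the authors' deposited table. With 1 library per genotype there is no replicate check and no error for a ratio, and the authors' adjusted p-values compare 2 libraries, not the genotypes. Differences were described by a 2-fold limit, meaning a log2 ratio of 1 or more, or of -1 or less, among genes whose mean normalized count was at least 50. A gene is said to pass the authors' threshold when its adjusted p is under 0.1 per the authors' deposited table.

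Integrins are cell surface receptors built of an alpha and a beta subunit that tie the actin skeleton to the matrix outside the cell. Laminins are trimers of an alpha, a beta and a gamma chain, and they form the sheet on which basement membranes assemble. Fibroblasts are known for fibronectin and collagen receptors and for laminin chains they supply to the basement membranes of neighbouring tissues. The alpha chain of a laminin carries the main binding sites for integrins, and the alpha subunit of an integrin largely sets which ligand it binds.

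The fibroblast label was checked against marker genes. All 9 fibroblast markers lay above the minimum mean, with Col1a1 at a mean normalized count of 312018 and Vim at 121413 per the authors' deposited table, but the 2 cultures differed in some of them. In condition B, Dcn was 50.5-fold higher (adjusted p = 3.6e-10), Thy1 7.35-fold (adjusted p = 0.00133) and Pdgfra 5.8-fold (adjusted p = 0.0191) per the authors' deposited table, while the other 6 lay within the 2-fold limit. Past the same limit, 8.31% of all genes at the minimum mean were higher and 9.60% lower. The authors' threshold was passed by 1.98% and 1.22% in those directions. Of the other lists, 4 of 9 leukocyte, 3 of 6 endothelial, 2 of 8 epithelial, 1 of 4 skeletal muscle and 2 of 4 glial markers reached that minimum. Their summed means per the authors' deposited table were 412 for leukocyte, 653 for endothelial, 1324 for epithelial, 340 for skeletal muscle and 186 for glial markers, against 899523 for the fibroblast markers. Most of the epithelial sum was Krt19 (mean 1146 per the authors' deposited table). The targeted genes Tet1 and Tet2 were 3.54-fold and 1.67-fold lower in condition B per the authors' deposited table, and their adjusted p-values there were 0.851 and 1.

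Of the 36 genes, 27 reached the minimum mean. Past the 2-fold limit, 5 of 27 were higher in condition B (Itga2, Itga4, Itga6, Lama4 and Lamb3) and 4 were lower (Itga3, Itga10, Itgb8 and Lama5). Of these, 2 reached the minimum mean only through the condition where they were high, Lamb3 through condition B and Itgb8 through condition A. Over all 12401 genes at that minimum, 8.31% were higher and 9.60% were lower in condition B past the same limit. The authors' threshold was passed by 3 of the 27 toward condition B (Itga2, Itga4 and Lama4) and by 2 the other way (Itga3 and Lama5), against 1.98% and 1.22% of all genes. The median log2 ratio of the 27 was 0.07 with quartiles of -0.33 and 0.71, beside -0.04, -0.39 and 0.30 for all genes. The 2-fold limit was passed more often at low means over the whole table, by 45.6% of genes with means from 50 to 200 and by 6.62% of genes at 10000 or more. Of the 9 members at 10000 or more only Lama5 lay past it, and 3 of the 5 members between 50 and 200 did. Itga10 lay just past the limit, at a log2 ratio of -1.08, and Itga1 just short of it, at 0.96 per the authors' deposited table.

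**Figure D1:**
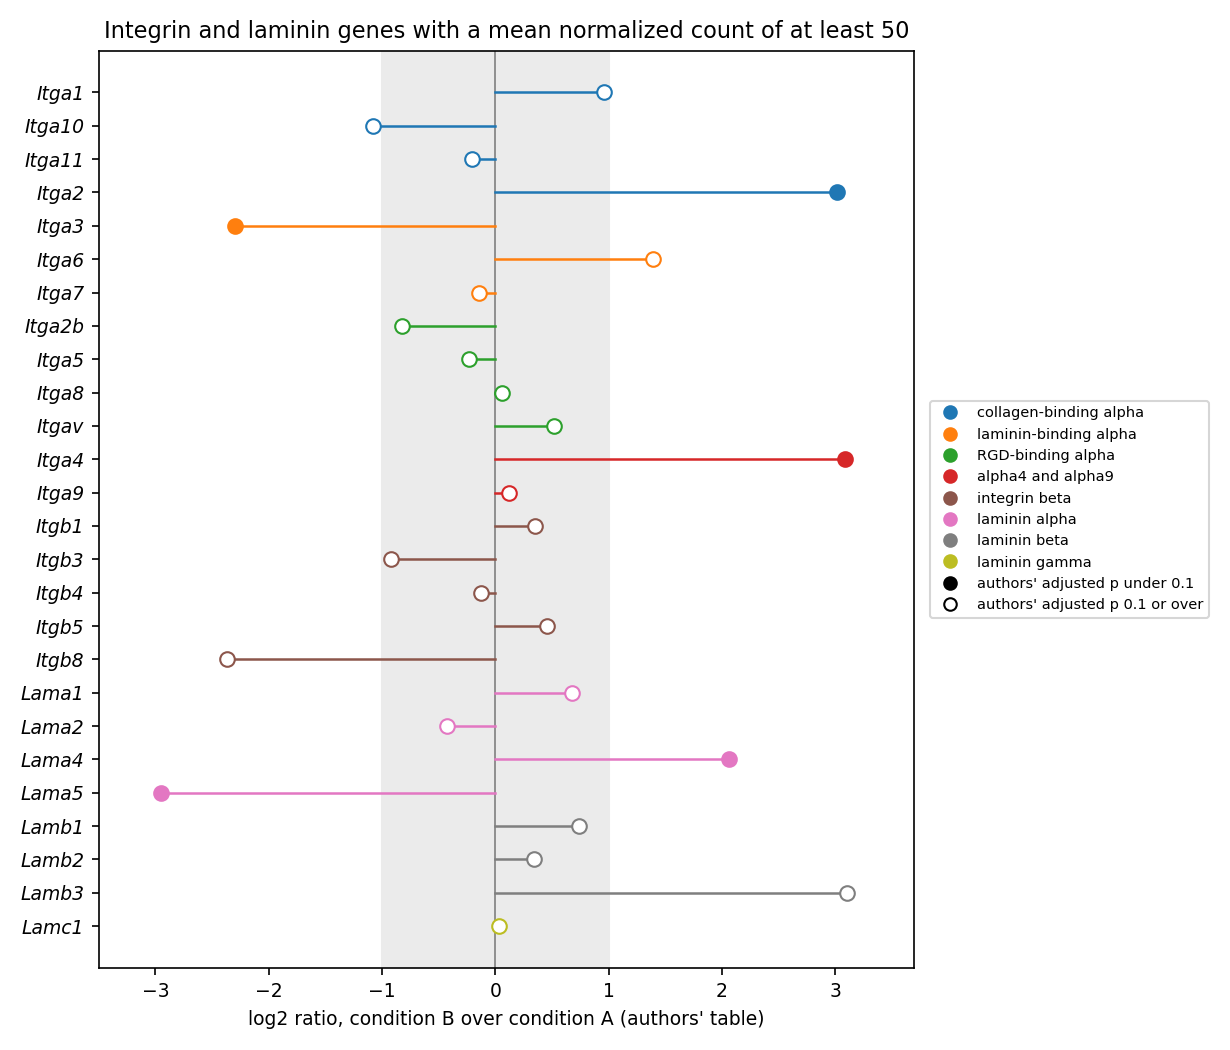
Log2 ratio of condition B over condition A for 26 integrin and laminin genes at or above a mean normalized count of 50, coloured by role, from the authors' deposited table. Filled points have an authors' adjusted p under 0.1, the grey band spans log2 ratios from -1 to 1, and the 5 filled points are Itga2, Itga4 and Lama4 on the positive side and Itga3 and Lama5 on the negative side.

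Promoter sequences are shown for the genes past the authors' threshold that the RefSeq promoter table holds, since the methylated cytosines that TET enzymes oxidize lie mostly at CpG sites. Promoters of 23 of the 36 genes were read from that table. Each run covers 250 bases before and 50 bases after the annotated start, 5′ to 3′ on the gene's strand, with CpG sites in capitals. The positions are RefSeq's on GRCm38.p6, while the submitters' processing notes name mm9. They are chr13:114932051-114932350 on the minus strand for Itga2, chr11:95076665-95076964 on the minus strand for Itga3, chr2:79255176-79255475 on the plus strand for Itga4 and chr2:180225810-180226109 on the minus strand for Lama5. For Itga3, which has a second entry, the first is shown.
Itga2: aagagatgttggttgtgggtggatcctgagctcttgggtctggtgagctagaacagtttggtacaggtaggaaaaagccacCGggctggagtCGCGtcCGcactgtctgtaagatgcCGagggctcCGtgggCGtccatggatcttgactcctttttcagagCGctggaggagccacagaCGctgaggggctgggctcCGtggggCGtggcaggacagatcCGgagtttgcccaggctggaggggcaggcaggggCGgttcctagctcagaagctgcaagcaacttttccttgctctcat
Itga4: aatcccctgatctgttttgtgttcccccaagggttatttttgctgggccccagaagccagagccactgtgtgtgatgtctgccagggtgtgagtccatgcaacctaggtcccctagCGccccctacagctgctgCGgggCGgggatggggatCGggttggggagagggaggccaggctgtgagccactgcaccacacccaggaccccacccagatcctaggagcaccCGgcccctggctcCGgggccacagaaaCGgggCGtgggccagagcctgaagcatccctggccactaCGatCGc
Itga3: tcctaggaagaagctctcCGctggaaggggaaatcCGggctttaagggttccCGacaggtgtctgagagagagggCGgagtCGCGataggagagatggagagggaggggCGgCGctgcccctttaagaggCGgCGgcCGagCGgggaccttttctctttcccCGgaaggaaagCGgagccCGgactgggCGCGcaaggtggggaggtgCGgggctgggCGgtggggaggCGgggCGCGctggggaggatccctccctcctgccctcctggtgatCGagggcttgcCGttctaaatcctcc
Lama5: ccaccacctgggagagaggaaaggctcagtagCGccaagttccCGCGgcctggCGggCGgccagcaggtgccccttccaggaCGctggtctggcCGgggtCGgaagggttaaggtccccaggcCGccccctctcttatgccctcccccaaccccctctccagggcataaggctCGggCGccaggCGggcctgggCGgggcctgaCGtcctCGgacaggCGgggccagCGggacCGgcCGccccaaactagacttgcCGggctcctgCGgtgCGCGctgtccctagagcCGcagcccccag

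The windows shown held 13 CpG sites for Itga2, 10 for Itga4 and 24 each for Itga3 and Lama5. Among the other genes past the 2-fold limit, Lamb3, which was higher in condition B, had windows with 2 and 5 sites, while Itga10 and Itgb8, which were lower, had 6 and 13. No window was read for Itga6 or Lama4, which were also higher in condition B. The second window of Itga3 held 5. The counts of genes higher and lower in condition B overlapped also without that window, since Itga10 had fewer sites than Itga2 and Itga4. Across 32851 promoter windows of 300 bases in the RefSeq table the median was 7 CpG sites with quartiles of 3 and 20. The 4 windows each held GGGCGG, a GC box, on either strand, as did 35.7% of all windows, and none held TATAAA on either strand, which 13.6% of all windows did. Methylation was not analysed here, and these counts describe the sequence alone.

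Collagen-binding alpha subunits split by gene. Itga2, a collagen receptor of platelets and epithelia, was 8.14-fold higher in condition B at a mean normalized count of 429 (adjusted p = 0.0543), per the authors' deposited table. Itga1, which binds network-forming collagen and is widespread in mesenchyme, was 1.94-fold higher (adjusted p = 1) at a mean of 1082 per the authors' deposited table. Itga10, the collagen receptor of cartilage cells, had a log2 ratio of -1.08 at a mean of 148 (adjusted p = 1) per the authors' deposited table. An annotated transcript of another gene, Gm42957, covers 33.5% of the exonic bases of Itga10, so its value is uncertain. Itga11, the fibroblast receptor for fibrillar collagen, was the collagen receptor with the highest level per length, and its ratio was small. Its log2 ratio was -0.21 at a mean of 17722 per the authors' deposited table.

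Laminin-binding alpha subunits went in opposite directions. Itga3, a receptor for laminins with the alpha3 or alpha5 chain, was 4.93-fold lower in condition B at a mean of 5035 (adjusted p = 0.0308), per the authors' deposited table. Itga6, the laminin receptor subunit that pairs with beta1 or beta4, was 2.62-fold higher at a mean of 3104 (adjusted p = 0.618) per the authors' deposited table, short of the authors' threshold. Itga7, the laminin receptor of muscle, had a log2 ratio of -0.14 at a mean of 705 per the authors' deposited table. The ratio of Itga6 to Itga3 was thus 12.9-fold higher in condition B, computed from the authors' deposited table, a value that does not depend on how the libraries were scaled. This pair was chosen after its values were seen.

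Alpha subunits that bind the RGD sequence of fibronectin and vitronectin included Itga5 and Itgav, the alpha subunits with the highest levels per length, and none lay past the 2-fold limit. Itga5, the fibronectin receptor subunit, had a log2 ratio of -0.23 at a mean of 39733 per the authors' deposited table. Itgav, which pairs with several beta subunits, had a log2 ratio of 0.52 at a mean of 29022 per the authors' deposited table. Itga8, the nephronectin receptor subunit, lay at 0.06 with a mean of 5301, and Itga2b, known from platelets, lay at -0.82 with a mean of 261 per the authors' deposited table. These 4 genes had adjusted p-values of 1 per the authors' deposited table.

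Itga4 and Itga9, relatives that bind fibronectin, tenascin or the cell surface protein Vcam1, differed from each other. Itga4, known from leukocytes and neural crest cells, was 8.51-fold higher in condition B at a mean of 948 (adjusted p = 0.00725), per the authors' deposited table. Itga9 had a log2 ratio of 0.12 at a mean of 1360 per the authors' deposited table. In the mouse annotation used here, 8.04% of the exonic bases of Itga4 overlap Cerkl on the opposite strand, and the kit does not mark strand. Genes on the opposite strand also overlap exons of Itga7, Itga8, Itgav, Itgb4, Lama2, Lama3 and Lamc3, each such gene over at most 7.66% of the exonic bases, and of Itgad. Cerkl itself had a mean of 25.9 and a 2.04-fold higher value in condition B per the authors' deposited table. Because Itga4 is also a leukocyte gene, that marker list was read beside it. Of 9 leukocyte markers 4 reached the minimum mean. Past the 2-fold limit, 2 of them were higher and 1 was lower in condition B, and 0 had an adjusted p under 0.1. All 4 had means between 50 and 200, a range where 45.6% of genes lay past the 2-fold limit in either direction. Among all genes at the minimum mean, only 1.98% met the authors' threshold toward condition B and 1.22% the other way. Lyz2 was 14.4-fold higher at a mean of 94.7 and Csf1r 2.07-fold higher at a mean of 64.1 per the authors' deposited table, and both reached the minimum only through condition B. Cd14 was 3.87-fold lower at a mean of 154, and Cd68 was 1.13-fold higher at a mean of 59.6 per the authors' deposited table. The pan-leukocyte gene Ptprc had a mean of 3.53 and Tyrobp was listed at 0 in both conditions per the authors' deposited table. The part of leukocytes in the ratio of Itga4 was not tested. In a bulk culture, more cells that carry a transcript and more of it per cell cannot be told apart.

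The leukocyte alpha subunits lay near the lower limit of the table. Their means per the authors' deposited table were 11.1 for Itgad, 5.38 for Itgae, 2.0 for Itgam and 1.48 for Itgax. Itgad was listed at 0 in condition A, so no fold is given, and the other 3 had log2 ratios between -1.26 and 0.15 per the authors' deposited table. Itgb2, the beta subunit that pairs with Itgad, Itgam and Itgax, had a mean of 10.3 per the authors' deposited table. No direction was read from these genes.

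Among beta subunits, the abundant ones had small ratios and Itgb8 alone of those at the minimum mean lay past the 2-fold limit. Itgb1, the shared partner of most matrix-binding alpha subunits, had a log2 ratio of 0.35 at a mean of 101284 per the authors' deposited table. Itgb5, a partner of Itgav, had a log2 ratio of 0.46 at a mean of 24245, and Itgb3, another partner of Itgav, one of -0.92 at a mean of 3104 per the authors' deposited table. Itgb8, which with Itgav activates latent TGF-beta, was 5.18-fold lower in condition B at a mean of 147 (adjusted p = 0.893), per the authors' deposited table, and it reached the minimum only through condition A. Itgb4, the hemidesmosome partner of Itga6, had a log2 ratio of -0.13 at a mean of 101 per the authors' deposited table. Itgb6 and Itgb7, known from epithelia and lymphocytes, had means of 9.38 and 41.5 per the authors' deposited table, under the minimum, with log2 ratios of 3.15 and -1.37. The median log2 ratio of the 5 beta subunits at the minimum mean was -0.13, with 0 higher and 1 lower past the 2-fold limit.

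**Figure D2:**
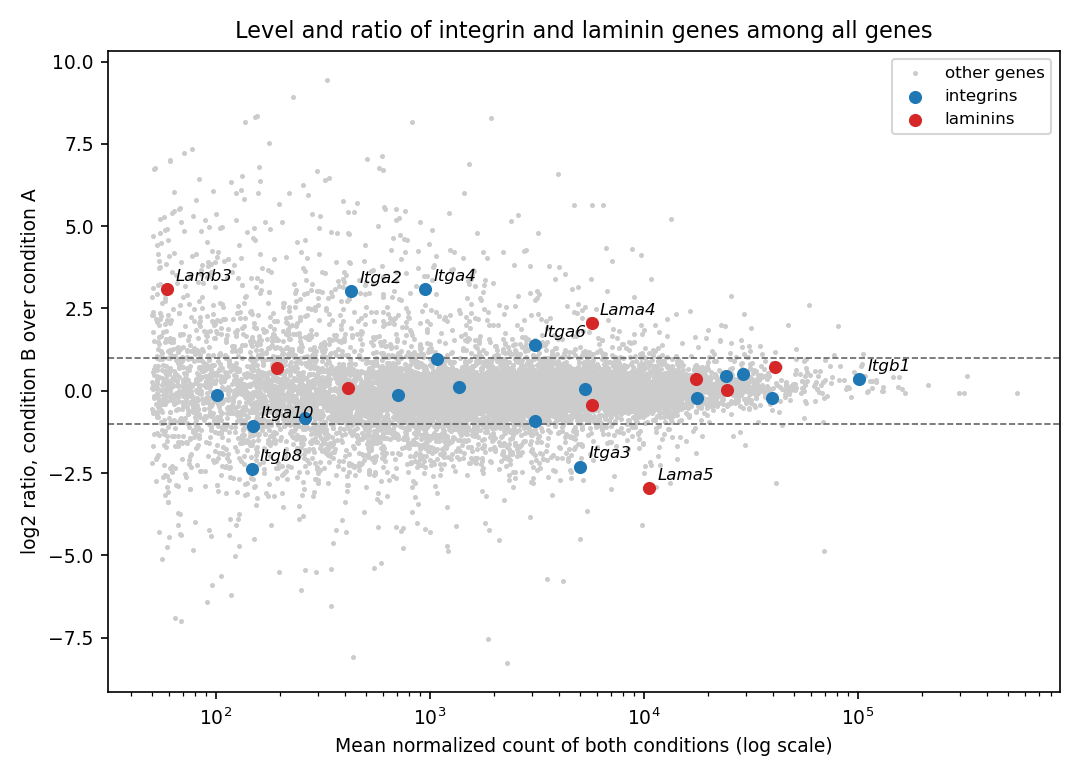
Mean normalized count of both conditions (log scale) against the log2 ratio of condition B over condition A for genes at a mean of at least 50, from the authors' deposited table. Integrins are blue, laminins red and other genes grey, dashed lines mark log2 ratios of -1 and 1, and the named genes are those past a line and Itgb1. Lama5 (mean 10544, log2 ratio -2.95), Lama4 (5683, 2.06) and Itga3 (5035, -2.30) stand outside the lines at means where most genes lie within them.

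Among laminins, the alpha chains Lama4 and Lama5 differed in opposite directions, while the abundant beta and gamma chains they assemble with had small ratios. Lama5, the chain of epithelial and vascular basement membranes, was 7.73-fold lower in condition B at a mean of 10544 (adjusted p = 0.00111), per the authors' deposited table. Lama4, the chain of blood vessel and mesenchymal basement membranes, was 4.16-fold higher at a mean of 5683 (adjusted p = 0.0768) per the authors' deposited table. The ratio of Lama4 to Lama5 was therefore 32.2-fold higher in condition B, computed from the authors' deposited table and chosen after the values were seen. Lama2, the muscle and nerve sheath chain whose loss causes muscular dystrophy, had a log2 ratio of -0.43 at a mean of 5720 per the authors' deposited table. Lama1, the chain of the early embryo, had one of 0.68 at a mean of 193, and Lama3, the epidermal chain, had a mean of 25.8 per the authors' deposited table, under the minimum.

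Endothelial markers were read beside Lama4 and Lama5, which are both chains of vascular basement membranes and had opposite ratios. Of 6 such markers 3 reached the minimum mean, and these 3 were higher in condition B past the 2-fold limit. They were Kdr, 6.88-fold higher at a mean of 418, Tek, 2.31-fold higher at 119, and Emcn, 66.7-fold higher at 96.3 per the authors' deposited table. Over all genes at the minimum mean, 8.31% were higher past the 2-fold limit. In either direction it was passed by 45.6% of genes with means from 50 to 200 and 29.5% from 200 to 1000. Emcn passed the authors' threshold (adjusted p = 0.0638 per the authors' deposited table), and it reached the minimum only through condition B. Under the minimum, the endothelial junction gene Pecam1 was 4.17-fold higher at a mean of 9.8 and Cdh5, another, 1.29-fold lower at a mean of 8.43 per the authors' deposited table. Tie1 had a mean of 0.474 and was listed at 0 in condition B per the authors' deposited table. The part of endothelial cells in the ratios of Lama4 and Lama5 was not tested.

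Lamb1, the common beta chain of embryonic laminins, had a log2 ratio of 0.74 at a mean of 40806 per the authors' deposited table. Lamb2, the beta chain of kidney filter and synapse, had one of 0.34 at a mean of 17523, and Lamc1, the gamma chain of most laminins, one of 0.03 at a mean of 24374 per the authors' deposited table. All 3 had adjusted p-values of 1 per the authors' deposited table. Lamb3, a beta chain of epithelial laminin, was 8.55-fold higher in condition B at a mean of 58.9 (adjusted p = 1) per the authors' deposited table. Lamb3 reached the minimum only through condition B, where it was high. Lamc3, a gamma chain of restricted expression, had a mean of 14.2 per the authors' deposited table, under the minimum. Of the epithelial markers, 6 of 8 lay under the minimum, with Epcam at a mean of 4.37, Krt14 at 0.527 and Krt5 at 9.43 per the authors' deposited table. The 2 at the minimum were Krt19, at a log2 ratio of -0.02, and Krt18, 4.88-fold lower in condition B at a mean of 111. Krt18 reached the minimum only through condition A. Under the minimum, Krt5 was 18.9-fold higher, Krt14 was listed at 0 in condition A, and Epcam, Cdh1, Krt8 and Trp63 were lower in condition B. The part of epithelial cells in the ratio of Lamb3 was not tested.

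Levels were compared between genes as mean normalized counts per kilobase of the longest annotated transcript, which all 36 genes had. Among the 8 beta subunits Itgb1 held 76.9% of the summed level and Itgb5 21.4%, from the authors' deposited table. Among the 17 alpha subunits Itga5 held 45.0%, Itgav 20.4% and Itga11 17.7%, and Itga3 held 5.14% and Itga6 3.57%. Itga2 and Itga4, which had the largest ratios among the alpha subunits at the minimum mean, held 0.30% and 0.481%. Lama4 (940 per kilobase) and Lama5 (926 per kilobase) held 37.8% and 37.3% of the summed level of the 5 laminin alpha chains, and Lama2 held 24.0%. Lamb1 held 69.3% and Lamb2 30.6% of the beta chains. These shares are of the mean over both conditions per the authors' deposited table. They carry no error. Lama4 and Lama5 had opposite ratios, so their near-equal shares describe the mean over both conditions and neither condition alone.

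**Figure D3:**
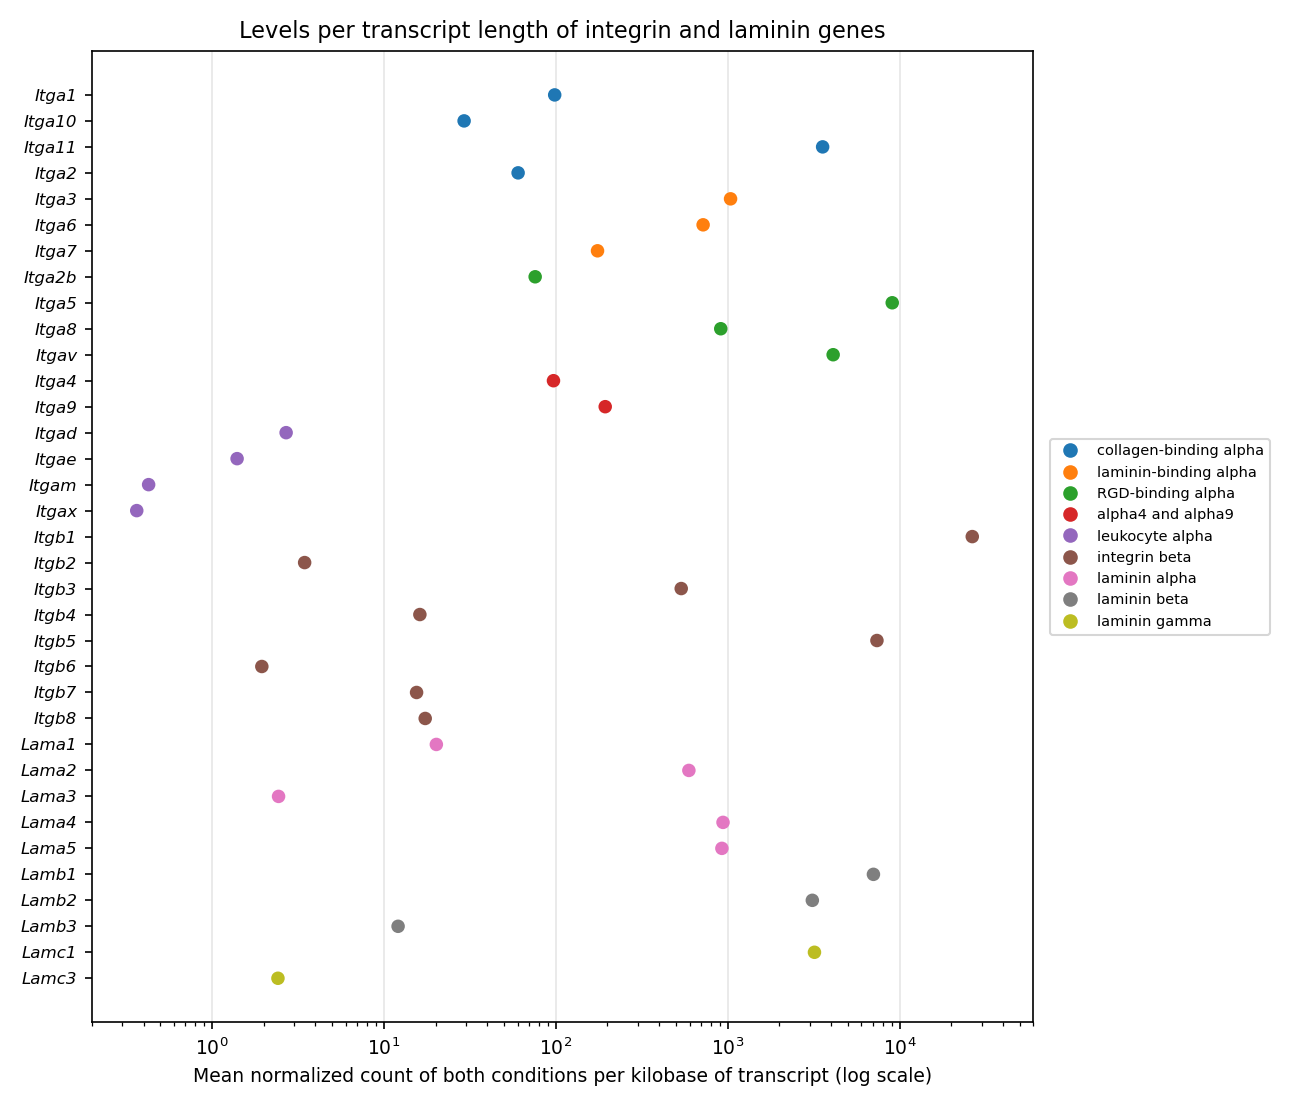
Mean normalized count of both conditions per kilobase of transcript (log scale) for 35 integrin and laminin genes, coloured by role, from the authors' deposited table and GENCODE lengths. Itgb1 is highest at 26500 per kilobase, Lama4 and Lama5 sit at 940 and 926 as means over both conditions, and the leukocyte alpha subunits lie between 0.365 and 2.7.

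Partner genes of integrins and laminins were read from 3 lists. Of 17 basement membrane partners 2 were higher and 4 lower in condition B past the 2-fold limit, and their median log2 ratio was -0.02. Over all genes at the minimum mean, 8.31% were higher and 9.60% lower past that limit, with a median of -0.04. The collagen IV genes Col4a5 and Col4a6 had log2 ratios of 1.55 and 2.50 per the authors' deposited table, and of these Col4a6 passed the authors' threshold (adjusted p = 0.0279). Col4a3 and Col4a4 had log2 ratios of -2.99 and -1.67 at means of 75.3 and 66.1 (adjusted p = 1 for both) per the authors' deposited table. Both reached the minimum only through condition A, so no direction was read from them. The count of 4 lower genes and the median include both. At a minimum mean of 200, 2 partners were lower, Col18a1 and Nid2, and the median was 0.30. Col18a1 was 2.77-fold lower in condition B at a mean of 12088 (adjusted p = 0.425), per the authors' deposited table. Nid2 was 2.49-fold lower at a mean of 6800 (adjusted p = 0.654) per the authors' deposited table, and neither passed the authors' threshold. The main collagen IV genes Col4a1 and Col4a2 had log2 ratios of 0.76 and 0.77, and Hspg2, which encodes perlecan, one of -0.02 per the authors' deposited table.

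Other integrin ligands had a median log2 ratio of 0.45, beside -0.04 for all genes. Of 20 such genes 16 reached the minimum mean, 6 were higher and 2 lower past the 2-fold limit, and 3 passed the authors' threshold, all higher. Over all genes at that minimum, 8.31% were higher and 9.60% lower past the limit, and 1.98% and 1.22% passed the threshold in those directions. Vcam1, the cell surface ligand of Itga4 with Itgb1, was 7.25-fold higher in condition B at a mean of 8945 (adjusted p = 0.00185), per the authors' deposited table. Icam1, the ligand of the leukocyte integrins, was 16.5-fold higher at a mean of 1432 (adjusted p = 4.38e-05), and Postn, a matrix ligand of Itgav, 6.06-fold higher at a mean of 58862 (adjusted p = 0.00528) per the authors' deposited table. Thbs2 had a log2 ratio of 1.91 and did not pass (adjusted p = 0.103 per the authors' deposited table). Fn1, fibronectin and the ligand of Itga5, had a log2 ratio of -0.06 at a mean of 550534 per the authors' deposited table.

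Genes of focal adhesions, which link integrins to actin, mostly lay within the 2-fold limit, as did most genes at the minimum mean. Of 30 such genes 27 reached the minimum mean, 2 were higher and 1 lower past the 2-fold limit, 0 passed the authors' threshold, and the median log2 ratio was 0.28. Of the 27, 23 had positive and 4 negative log2 ratios, beside 5849 positive and 6551 negative among all 12401 genes at that minimum. Over all genes at that minimum, 8.31% were higher and 9.60% lower past the limit. The threshold was passed by 1.98% as higher and 1.22% as lower, and the median was -0.04. The talin gene Tln1, the kindlin gene Fermt2 and the kinase gene Ptk2 had log2 ratios of 0.18, 0.13 and 0.06 per the authors' deposited table. The ratios furthest from 0 were those of Tns1 at 1.51, Tln2 at 1.14, Kank1 at -1.01 and Parvb at -0.98 per the authors' deposited table.

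**Figure D4:**
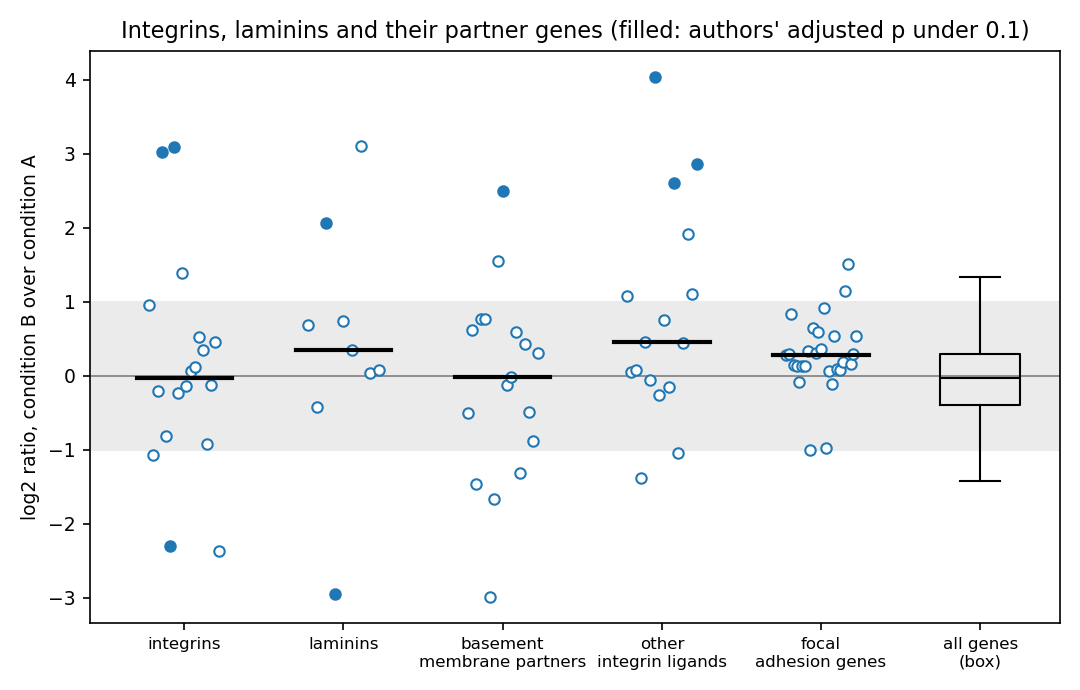
Log2 ratio of condition B over condition A for integrins, laminins and 3 lists of partner genes at a mean normalized count of at least 50, from the authors' deposited table. Points are genes, filled where the authors' adjusted p is under 0.1, black bars are medians, the grey band spans -1 to 1, and the box gives the quartiles and median of all genes with whiskers to the last gene within 1.5 times the box length. The medians are -0.03 for integrins, 0.34 for laminins, -0.02 for basement membrane partners, 0.45 for other ligands and 0.28 for focal adhesion genes.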

How the data were processed

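Libraries were made from total RNA of frozen pellets with the TruSeq RNA v2 kit, per the labels' protocols, a kit that does not mark strand. The labels give the molecule as genomic DNA. TopHat2 2.0, DESeq and mm9 are named in the submitters' processing notes, but no counter, annotation or dispersion setting is. The signal is the authors' deposited mean of counts divided by size factors over both conditions. The authors' deposited ratio, or fold, is condition B over condition A, and the deposited log2 ratio is its logarithm with no pseudocount. Raw and adjusted p-values are those of the authors' deposited table, adjusted over 17339 genes, and 6026 more genes are at 0 in both conditions.

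The names A and B match no label, so 2 columns of values were not used and depth per library, counting intervals and the planned genotype order were not analysed here. Counts, medians and shares were computed with pandas 2.3.3 in Python 3.11.15, and the 2-fold limit was checked on simulated counts. Those counts held Poisson counting noise alone, with no variation between cultures. They therefore cannot show how often unchanged genes pass the limit in these libraries. A gene was said to reach the minimum only through 1 condition where its mean and ratio put the other under 50. Transcript lengths and exon overlaps came from GENCODE M21. All members at the minimum mean were named, except 1 that is not reported here, with the 4 largest ratios of each partner list; others were chosen after their values were seen. The members and lists were chosen with earlier results of these data known. Alternatives were minimum means of 10, 200 and none, limits of 2 and of a 1.5-fold ratio on the log2 scale, an adjusted p under 0.05, centring on the median or trimmed mean, and inclusion of Itgal.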

Additional observations from a re-analysis of the deposited data

How the results depend on the processing

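No paired analysis was possible because each genotype has 1 library, and for the same reason no library could be left out. The 9 integrin and laminin genes past the 2-fold limit stayed past it in the same direction when ratios were centred on the median or the trimmed mean, both -0.04. With an adjusted p under 0.05, 1 gene toward condition B (Itga4) passed in place of 3, since Itga2 and Lama4 lie above that limit. A 1.5-fold limit gave 8 genes higher and 6 lower in condition B. The count of lower genes was 2 at a minimum mean of 200 and 7 with no minimum. Shares of all genes were not computed at these other settings, so these counts have no background beside them. Itgal, at a mean of 2.0, lies under the minimum of 50, so its inclusion could not change any count at that minimum.

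A minimum mean of 200 gave medians of 0.12 for integrins, 0.07 for laminins, 0.96 for collagen-binding subunits, 0.35 for integrin beta subunits, -0.43 for laminin alpha chains, 0.54 for laminin beta chains and 0.30 for basement membrane partners. With no minimum the beta subunits had 0.11, and laminin alpha chains had 0.67, as with a minimum of 10. These medians rest on few genes, so a different minimum changes which genes enter.

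For the partner lists too, shares of all genes were not computed at other settings. Among basement membrane partners, 1 gene was higher and 1 lower at a log2 ratio of 2. At 1.5-fold 6 were higher and 5 lower, and 2 were lower at a minimum of 200. Among other ligands, 3 were higher and 0 lower at a log2 ratio of 2. Among focal adhesion genes, 0 were higher and 0 lower at a log2 ratio of 2, 6 were higher and 2 lower at 1.5-fold, 2 were lower with no minimum, and 0 were lower under both centrings.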
